A study of Mus musculus with 21 samples.

Results

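Glutathione S-transferases were followed here through 10 genes of a deposited table of read counts for 24263 gene symbols. The genes were chosen by name, but with earlier results of these data known. They are the cytosolic Gsta2 and Gsta4 (alpha class), Gstm1 and Gstm2 (mu class), Gstp1 and Gstp2 (pi class) and Gsto1 (omega class), the mitochondrial and peroxisomal Gstk1 (kappa class), and the membrane-bound Mgst1 and Mgst3. All 10 were found in the table and are given in each of the 7 groups of 3 libraries.

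In 5 of the groups the cells were 1C11NE, a mouse line, labelled strain 129, that had been differentiated for 12 days along a noradrenergic programme. Every exposure lasted 24 h. ACR cells received 1 mM acrylamide. PBS-CM+ACR cells received 1 mM acrylamide in medium conditioned by vehicle-exposed BV2 microglia. ACR-CM cells received medium conditioned by BV2 microglia that had been given 1 mM acrylamide, and the labels do not say whether acrylamide was removed from it. PBS-CM cells received medium of vehicle-exposed BV2 cells alone, and PBS cells the phosphate-buffered saline vehicle. BV2, an immortalised microglial line labelled strain C57BL/6, was itself given 1 mM acrylamide (BV2_ACR) or vehicle (BV2_PBS). Each arm rests on a single cell line, the labels give a different base medium for each line, and whether the replicates were separate cultures is not stated. The p-values below then reflect only how far libraries of one group differ, which may be technical.

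Glutathione transferases join the thiol of glutathione to electrophilic compounds, and the conjugates are exported from the cell and trimmed to mercapturates. Acrylamide is a vinyl monomer that reacts with thiols and is conjugated in this way. Many genes of the family are targets of NRF2, a transcription factor that is released from its inhibitor KEAP1 when thiols are modified and then binds antioxidant response elements in DNA. Brain cells are best known for pi-class and mu-class enzymes, and alpha-class enzymes are best known from liver.

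Gstp1 (chr19:4035407-4037985, minus strand) and Gstp2 (chr19:4040285-4046023, minus strand) are neighbours in GRCm38, and their sequences are shown because reads from one can be assigned to the other. Their coding sequences, each 630 bases long in GENCODE M21, differed at 12 bases, an identity of 98.1%, and shared an unbroken identical stretch of 300 bases. Coding bases 1 to 60 hold 6 of these differences, which stand in capitals.
Gstp1: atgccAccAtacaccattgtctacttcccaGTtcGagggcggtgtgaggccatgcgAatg
Gstp2: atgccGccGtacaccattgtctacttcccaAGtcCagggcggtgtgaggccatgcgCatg

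Of all stretches of 50 bases in the longest listed transcripts, 62.3% of those in Gstp1 and 72.6% of those in Gstp2 occurred in another gene. For Gsta2 (chr9:78331018-78355788, minus strand) the share was 64.2%, mostly with Gsta1 and predicted relatives. It was 23.1% for Gstm1 (chr3:108012255-108017973, minus strand) and 9.36% for Gstm2 (chr3:107981702-107986453, minus strand). It was 0 for Gsta4, Gsto1, Gstk1, Mgst1 and Mgst3. How the authors' counting treated reads that match several genes is not given in the sources used here, so values of the pi pair and of Gsta2 are uncertain as single genes.

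Promoter sequence was available from RefSeq (GRCm38.p6) for 9 of the 10 genes, Gsta4 being the exception, as 250 bases before and 50 after each annotated start. Motifs were searched on both strands because members of the family moved together, namely TGACNNNGC, the core of the antioxidant response element, TGACTCA, the AP-1 motif, and GCGTG, the core of the xenobiotic response element. TGACTCA was present in Gstp1 and Gstp2, against 5.2% of all 32851 promoters. TGACNNNGC was present in Mgst1 alone, against 12.4% of all promoters, and GCGTG in Gsta2, Gstm1, Gstp1 and Mgst3, against 32.4%. Only these exact patterns were searched. Forms of the antioxidant response element with another base in place of the first C of TGACNNNGC were not, so a missing match does not show that a promoter lacks the element. The windows around the first 2 motifs are printed on the strand of each gene, with the match, which lies on the opposite strand, in capitals.
Gstp1, chr19:4037968-4037997: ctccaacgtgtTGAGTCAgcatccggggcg
Gstp2, chr19:4042292-4042321: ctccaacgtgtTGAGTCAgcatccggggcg
Mgst1, chr6:138140461-138140490: gcggggcttgGCACGGTCAggaggcggggt

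The pi-class windows carried the same 30 letters. The match began 74 bases upstream of the RefSeq start in Gstp1, 89 bases upstream in Gstp2 and 56 bases upstream in Mgst1. GENCODE M21 starts Gstp1, Gstp2 and Mgst1 further upstream than RefSeq does, so those distances depend on the annotation. A match describes letters in a window and was not tested for binding.

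Library totals ran from 2762287 to 7391991 counts. Levels below are CPM, counts relative to library size, with all 21 libraries put on 1 scale by TMM factors. A level says nothing about the number of cells, because fewer cells of a type and less RNA per cell cannot be told apart. On the first principal component of the 15 1C11NE libraries, which held 43.1% of the variance, PBS-CM+ACR replicate 3 lay at -17.4 and PBS-CM replicate 1 at -27.2, while the other 7 libraries with conditioned medium lay between 14 and 41.1. Counts of called genes are therefore also given without those libraries. The neuronal markers analysed here were low. The summed level of 6 noradrenergic markers was 4.32 to 12.3 CPM in 1C11NE libraries, while 7 general neuronal markers summed to 8.77 to 15.7 CPM. In BV2, 14 microglial markers summed to 3270 to 4030 CPM in BV2_ACR and 4170 to 4830 CPM in BV2_PBS, against 44.0 to 82.1 CPM in 1C11NE libraries, where Aif1, C1qa, C1qb, C1qc and Ptprc were at 0.

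**Figure D1:**
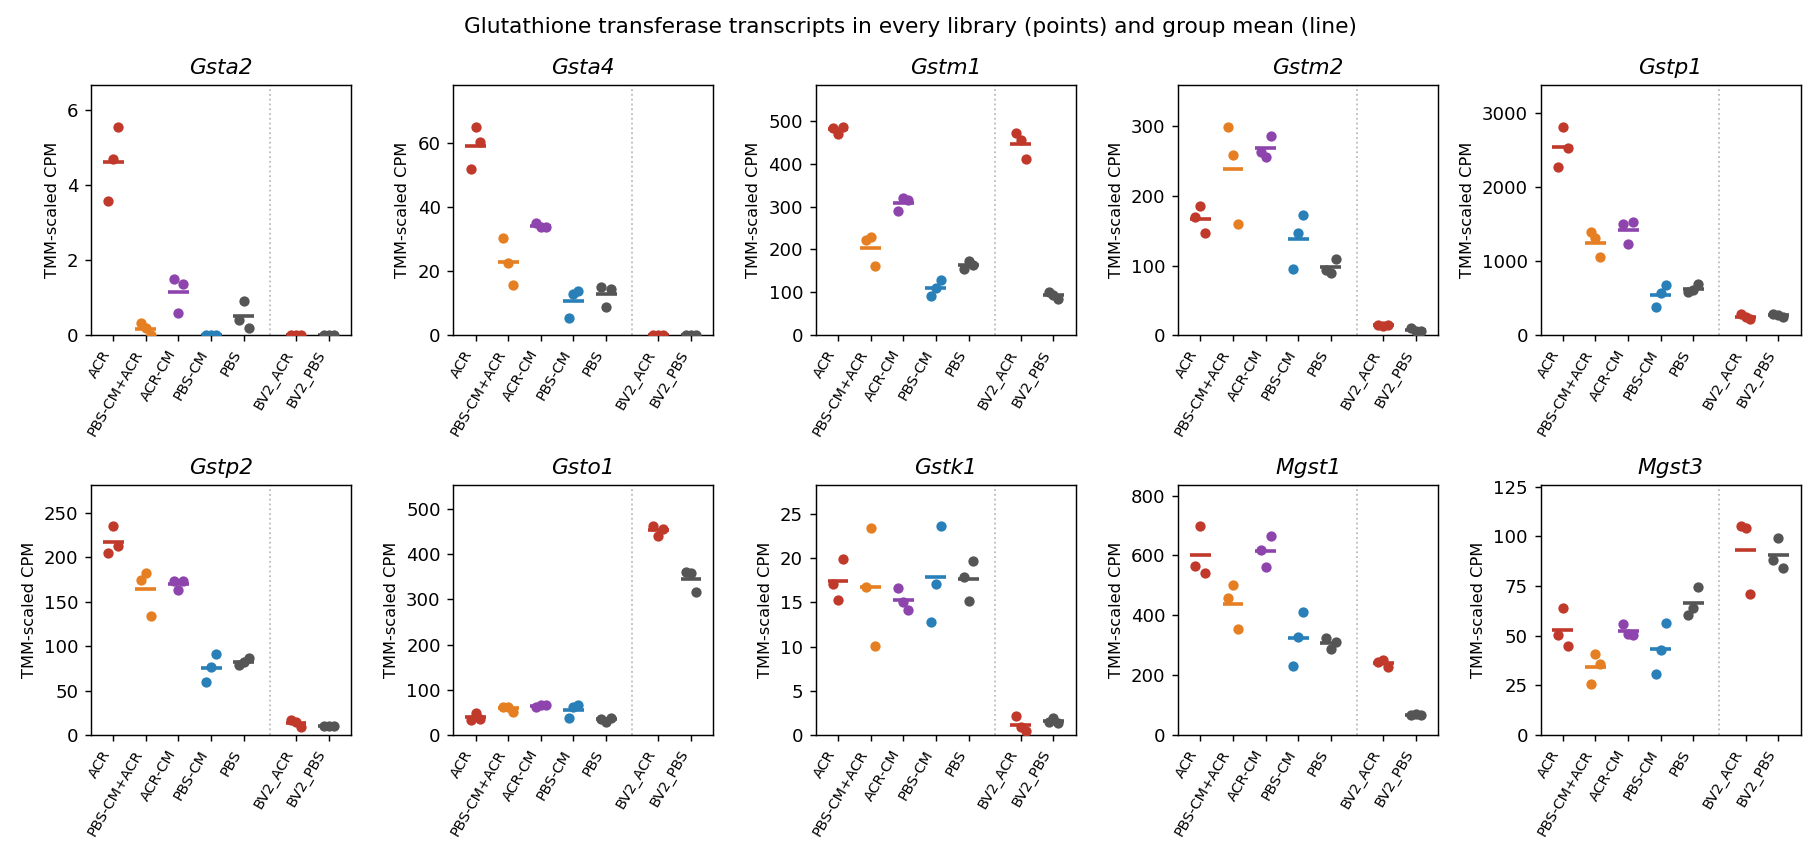
Level of each of the 10 genes in every library (points, TMM-scaled CPM, linear axis from 0, a scale of its own per gene) with the mean of 3 libraries (line); the dotted line separates 1C11NE groups from BV2 groups. Gstp1, Gstp2, Gstm1 and Gsta4 lie higher in ACR than in PBS, Gstm1 and Mgst1 lie higher in BV2_ACR than in BV2_PBS, and Gstp1 lies between 223 and 287 CPM in all 6 BV2 libraries.

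In 1C11NE cells, acrylamide raised Gsta4, Gstm1, Gstp1 and Gstp2, 4 of 9 members, and lowered 0 (edgeR's quasi-likelihood test with adjustment after Benjamini and Hochberg, threshold 0.05). The tenth member, Gsta2, was also called, but it passed the filter on low counts through the ACR group alone and is left out of these counts. Across all 12550 genes tested, 0.462% were called higher, 0.717% lower and 1.18% in either direction. Of the 9 members, 6 had groups that did not overlap, against 21.3% of all genes. Their median log2 change was 0.95, against -0.002 over all genes tested. The summed level of the 10 genes was 4176 ± 387 CPM in ACR and 1414 ± 88.1 CPM in PBS (SD, n = 3 each). When PBS-CM+ACR replicate 3 and PBS-CM replicate 1 were left out of the shared fit, Gstm2 and Mgst1 were called higher as well.

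Fibroblast markers were lower beside these results. The 6 listed markers in the table, with Col1a1 and Col1a2 the best known, summed to 434 to 719 CPM in ACR. In PBS they summed to 1320 to 1760 CPM, without overlap. Most of the sum was Col1a2, at a mean of 521 CPM in ACR and 1420 CPM in PBS. Col1a1, Col3a1, Pdgfra and Acta2 were also lower in ACR, without overlap. Dcn had 0 counts in ACR but only 7 over the PBS libraries. The sums were 593 to 1460 CPM in PBS-CM+ACR, 676 to 1070 CPM in ACR-CM and 1120 to 2380 CPM in PBS-CM, and at most 0.969 CPM in BV2 libraries. Their part in the 1C11NE results was not tested.

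Gstp1, the pi-class enzyme best known for detoxifying small electrophiles, stood at 2270, 2820 and 2530 CPM in ACR libraries and at 583, 611 and 698 CPM in PBS libraries. The groups lay far apart. The rise was 3.99-fold, a log2 change of 2.00 ± 0.24 (SE, edgeR adjusted p = 0.0003). Gstp2, its near copy, stood at 205, 235 and 213 CPM in ACR and at 78.5, 82.2 and 86.3 CPM in PBS, again without overlap, a rise of 2.62-fold (log2 1.39 ± 0.19, edgeR adjusted p = 0.00075).

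With PBS-CM as the background, both pi genes rose again. Gstp1 stood at 1390, 1310 and 1060 CPM in PBS-CM+ACR and at 385, 568 and 677 CPM in PBS-CM, and Gstp2 at 175, 183 and 134 CPM in PBS-CM+ACR and at 60.2, 76.3 and 91.1 CPM in PBS-CM. Neither pair of groups overlapped, and PBS-CM+ACR replicate 3 was the lowest of its group for both genes, as PBS-CM replicate 1 was of its own. The rises were 2.26-fold for Gstp1 (log2 1.17 ± 0.24, edgeR adjusted p = 0.037) and 2.12-fold for Gstp2 (log2 1.09 ± 0.19, edgeR adjusted p = 0.016). Both calls were lost when replicate number was a block (edgeR adjusted p = 0.099 and 0.058), and Gstp1 lost its call when replicate 1 or 2 of PBS-CM+ACR was left out (edgeR adjusted p = 0.17 and 0.14), or replicate 1 or 2 of PBS-CM (0.068 and 0.13). Gstp2 lost its call without replicate 1 or 2 of PBS-CM+ACR (0.076 and 0.10) or replicate 2 of PBS-CM (0.063).

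Medium of acrylamide-exposed microglia was accompanied by similar values. In ACR-CM libraries Gstp1 stood at 1510, 1240 and 1530 CPM and Gstp2 at 173, 163 and 173 CPM, all above every PBS-CM library. Gstp1 rose 2.61-fold over PBS-CM (log2 1.39 ± 0.24, edgeR adjusted p = 0.0082) and Gstp2 2.23-fold (log2 1.16 ± 0.19, edgeR adjusted p = 0.0059). Between ACR-CM and PBS-CM+ACR the log2 difference was 0.21 ± 0.23 for Gstp1 (95% interval -0.28 to 0.70) and 0.07 ± 0.19 for Gstp2 (-0.32 to 0.47), and the groups overlapped for both. By mean level Gstp1 ran from PBS-CM, PBS, PBS-CM+ACR and ACR-CM up to ACR in 1C11NE cells, with overlap between PBS-CM and PBS and between PBS-CM+ACR and ACR-CM.

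Gstp2 made up 7.72 to 8.29% of the counts of the pair in ACR libraries and 11 to 11.9% in PBS libraries, where the exact 95% binomial intervals were at most 0.52 and 1.0 points wide to either side. In medium-exposed cells its share was 11.2 to 12.3% in PBS-CM+ACR, 10.2 to 11.7% in ACR-CM and 11.8 to 13.5% in PBS-CM. The ACR libraries thus lay below every other 1C11NE library. An exact permutation test of 3 libraries against 3 cannot give a p below 0.1, the intervals cover counting error only, and reads from the stretches shared by the genes enter the share in a way that is not known. With the counts of the pair summed, an alternative chosen after seeing the data, the log2 change was 1.94 for ACR over PBS (edgeR adjusted p = 0.00037), 1.16 for PBS-CM+ACR over PBS-CM (0.038) and 1.36 for ACR-CM over PBS-CM (0.009).

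**Figure D2:**
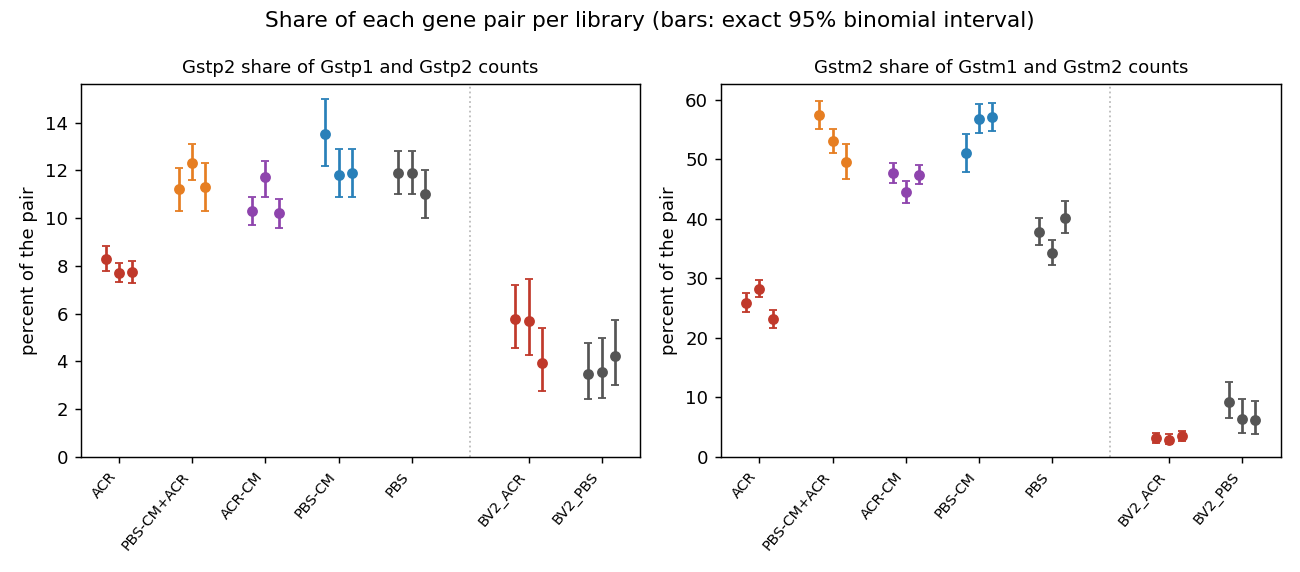
Share of Gstp2 in the counts of Gstp1 and Gstp2 (left) and of Gstm2 in the counts of Gstm1 and Gstm2 (right), in percent of the pair, 1 point per library with its exact 95% binomial interval. The Gstp2 share was 7.72 to 8.29% in ACR and 11 to 11.9% in PBS, and the Gstm2 share was 23.1 to 28.2% in ACR and 34.3 to 40.2% in PBS.

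Gstm1, the main mu-class enzyme of mouse tissues, stood at 484, 470 and 486 CPM in ACR and at 155, 172 and 163 CPM in PBS. It rose 2.92-fold, with wide separation of the groups (log2 1.54 ± 0.20, edgeR adjusted p = 0.00042). Gstm2, a mu-class enzyme known for conjugating oxidised catecholamines in human cells, stood at 169, 185 and 146 CPM in ACR and at 94.2, 89.8 and 110 CPM in PBS. Its groups did not overlap either, but its log2 difference of 0.76 ± 0.25 missed the threshold (95% interval 0.24 to 1.28, edgeR adjusted p = 0.18).

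The 2 genes also ordered the groups differently. Gstm1 stood at 222, 228 and 162 CPM in PBS-CM+ACR, at 289, 319 and 315 CPM in ACR-CM and at 91.6, 111 and 129 CPM in PBS-CM, so that ACR was its highest group. Gstm2 stood at 299, 258 and 160 CPM in PBS-CM+ACR, at 263, 256 and 285 CPM in ACR-CM and at 95.7, 146 and 172 CPM in PBS-CM, so that ACR-CM had its highest mean and overlapped PBS-CM+ACR. The Gstm2 share of the pair was 49.6 to 57.4% in PBS-CM+ACR, 44.5 to 47.7% in ACR-CM and 51.1 to 57.1% in PBS-CM. Every library with conditioned medium thus had a larger Gstm2 share than every ACR and PBS library. Over PBS-CM, Gstm1 rose 2.77-fold in ACR-CM (log2 1.47 ± 0.20, edgeR adjusted p = 0.0012) while Gstm2 differed by 0.95 ± 0.25 (0.084). In PBS-CM+ACR the log2 differences were 0.85 ± 0.20 for Gstm1 (edgeR adjusted p = 0.076) and 0.76 ± 0.25 for Gstm2 (0.31). Both were called when PBS-CM+ACR replicate 3 was left out (edgeR adjusted p = 0.017 for Gstm1 and 0.049 for Gstm2).

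Among the alpha-class genes, Gsta4, whose enzyme conjugates 4-hydroxynonenal and other products of lipid peroxidation, stood at 51.9, 65.0 and 60.3 CPM in ACR and at 15, 8.70 and 14.5 CPM in PBS. It rose 4.63-fold (log2 2.21 ± 0.29, edgeR adjusted p = 0.0005), and no stretch of 50 bases of its transcript occurs in another gene. In the medium groups it stood at 30.4, 22.6 and 15.6 CPM in PBS-CM+ACR, at 35.1, 33.6 and 33.6 CPM in ACR-CM and at 5.42, 12.9 and 13.8 CPM in PBS-CM. These groups did not overlap, with ACR-CM the highest. The rise of ACR-CM over PBS-CM was 3.15-fold (log2 1.65 ± 0.29, edgeR adjusted p = 0.011, and 0.051 without ACR-CM replicate 1), and the PBS-CM+ACR difference from PBS-CM was 1.05 ± 0.30 (edgeR adjusted p = 0.22).

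Gsta2, a liver-type alpha enzyme, was close to the detection limit. It had 16, 26 and 26 counts in ACR libraries (3.59, 4.69 and 5.56 CPM) and 3, 7 and 1 counts in PBS libraries (0.401, 0.909 and 0.204 CPM). All ACR libraries lay above all PBS libraries. Since ACR is the only group with enough counts to pass the filter, the gene had to differ there, and no weight is placed on its fold or test in that comparison. In conditioned medium it had 1, 1 and 0 counts in PBS-CM+ACR, 9, 3 and 8 counts in ACR-CM and 0 counts in every PBS-CM library. ACR-CM was therefore at least 6.74-fold higher than PBS-CM, with a floor of 3 counts over the group (edgeR adjusted p = 0.031). That call was lost without ACR-CM replicate 1 or 3 or without any one PBS-CM library (edgeR adjusted p between 0.068 and 0.14).

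Gsto1 and Gstk1 were not called by edgeR in any of the 1C11NE comparisons. Gsto1, an omega-class enzyme with thioltransferase and dehydroascorbate reductase activity, stood at 33.0, 48.2 and 35.5 CPM in ACR and at 36.5, 29.6 and 37.7 CPM in PBS, and the groups overlapped (log2 0.16 ± 0.21, 95% interval -0.28 to 0.61). Gstk1, the kappa-class enzyme, averaged between 15.3 and 17.8 CPM in the 5 1C11NE groups, and all 5 groups overlapped. Its ACR difference from PBS was -0.02 ± 0.26 on the log2 scale (95% interval -0.57 to 0.53).

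Mgst1, a trimeric enzyme of the endoplasmic reticulum and outer mitochondrial membrane with transferase and peroxidase activity, stood at 565, 697 and 541 CPM in ACR and at 323, 289 and 312 CPM in PBS. The groups did not overlap, and the log2 difference of 0.95 ± 0.23 stood just outside the threshold (95% interval 0.46 to 1.44, edgeR adjusted p = 0.055). It was inside it with DESeq2's Wald test (adjusted p = 0.00061). In the medium groups Mgst1 stood at 459, 502 and 353 CPM in PBS-CM+ACR, at 617, 562 and 664 CPM in ACR-CM and at 230, 329 and 410 CPM in PBS-CM. ACR-CM lay above all PBS-CM libraries (log2 0.92 ± 0.23, edgeR adjusted p = 0.075), while PBS-CM+ACR overlapped them (0.41 ± 0.23, edgeR adjusted p = 0.67).

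Mgst3, a relative with glutathione-dependent peroxidase activity, stood at 50.3, 63.7 and 44.9 CPM in ACR and at 60.5, 64.1 and 74.7 CPM in PBS. The groups overlapped, and the log2 difference of -0.33 ± 0.22 was not called (95% interval -0.80 to 0.13, edgeR adjusted p = 0.61). It was the only one of the 10 genes besides Gstk1 with a negative ACR difference from PBS. Its levels in conditioned medium were 25.7, 41.0 and 35.8 CPM in PBS-CM+ACR, 55.7, 50.9 and 50.4 CPM in ACR-CM and 30.6, 42.9 and 56.4 CPM in PBS-CM.

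**Figure D3:**
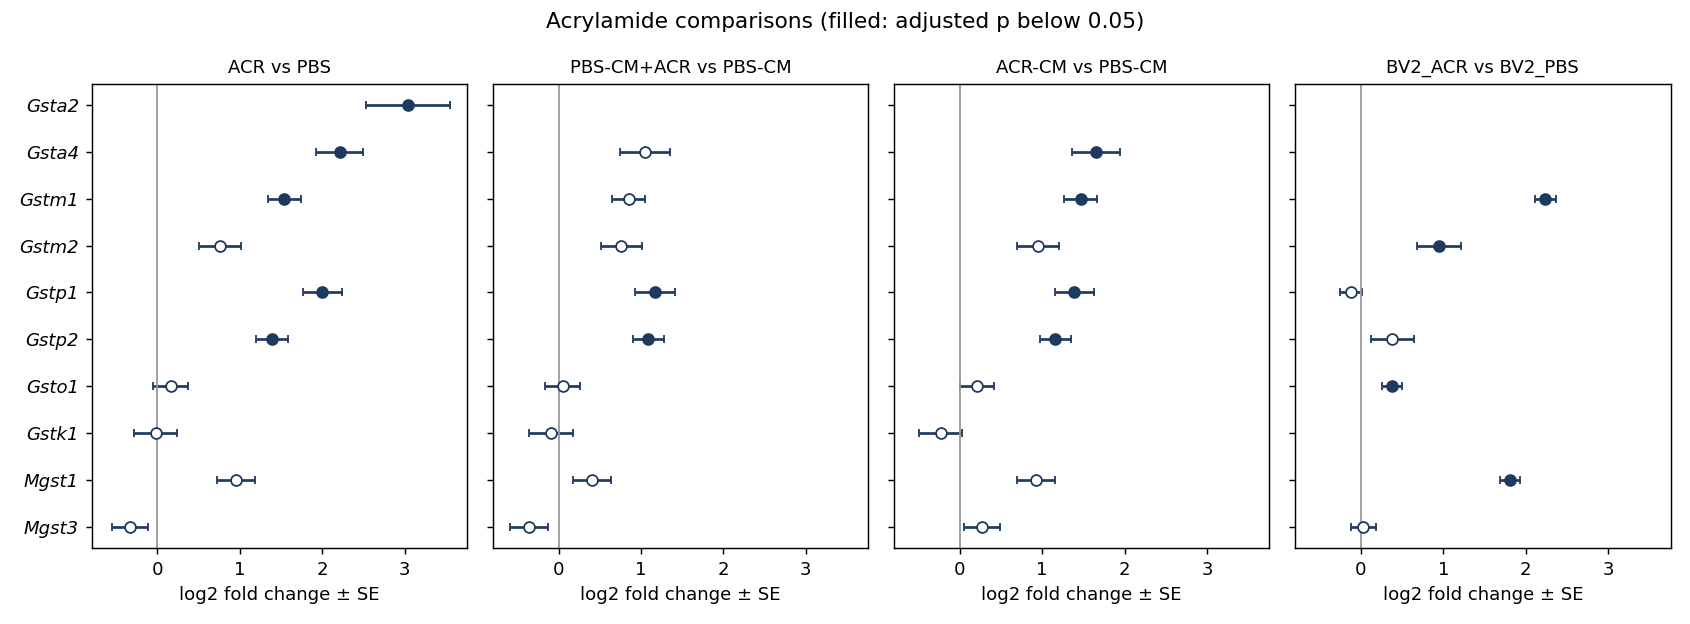
Log2 fold change ± SE of each gene in the 4 acrylamide comparisons, fitted with edgeR; filled points have an adjusted p below 0.05. Filled points number 5, 2, 4 and 4 from left to right, the first including Gsta2, which passed the filter through ACR alone. Gsta2 is not drawn over PBS-CM, which had 0 counts, nor are Gsta2, Gsta4 and Gstk1 in BV2.

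Across the medium comparisons, PBS-CM+ACR raised 2 of the 10 genes over PBS-CM, Gstp1 and Gstp2, and lowered 0, against 0.375% of all genes called in either direction, 0.175% higher and 0.199% lower. Groups did not overlap for 4 members, against 10.7% of all genes. The median log2 difference of the 10 was 0.80, or 0.76 with Gsta2 at its bound, against -0.017 over all genes. Without PBS-CM+ACR replicate 3 and PBS-CM replicate 1 the count was 3. ACR-CM raised 5 of the 10 genes over PBS-CM, Gsta2, Gsta4, Gstm1, Gstp1 and Gstp2, and lowered 0, against 0.924% of all genes called in either direction, 0.446% higher and 0.478% lower. Groups did not overlap for 7, against 18.4% of all genes. The median was 1.05, against -0.026, and without the same libraries 6 were called. Both comparisons and that of PBS-CM with PBS share the PBS-CM libraries. A fit of the 6 libraries of each contrast alone called 0 members in the first and 1 in the second.

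Set directly against PBS-CM+ACR, ACR-CM differed in 0 of the 10 genes by edgeR's quasi-likelihood test and in 0 by DESeq2, against 0.0159% of all genes called by edgeR. An unadjusted p below 0.05 was reached by 5 of the 10, against 5.48% of all genes. Those were Gsta2, Gsta4, Gstm1, Mgst1 and Mgst3, each higher in ACR-CM, with log2 differences of 2.61 ± 0.85, 0.61 ± 0.28, 0.62 ± 0.19, 0.51 ± 0.23 and 0.63 ± 0.23 (edgeR adjusted p between 0.70 and 0.91). The same 5 had groups that did not overlap, against 10.1% of all genes.

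Without acrylamide, PBS-CM differed from PBS in 0 of the 10 genes by edgeR and in 3 by DESeq2, while 4.55% of all genes were called by edgeR, 2.49% higher and 2.06% lower. Groups did not overlap for 4 members, against 24.5% of all genes. Unadjusted p was below 0.05 for 4 of the 10, against 25.6% of all genes. Gsto1 was higher by 0.68 ± 0.21 on the log2 scale, at 38.2, 61.1 and 67.2 CPM in PBS-CM and 36.5, 29.6 and 37.7 CPM in PBS (edgeR adjusted p = 0.068). Gstm1 was lower, by -0.57 ± 0.19 (edgeR adjusted p = 0.093), as was Mgst3, by -0.62 ± 0.22 (0.10). Gsta2 had 0 counts in PBS-CM and 11 in PBS, at least 3.15-fold lower (edgeR adjusted p = 0.054). Leaving out PBS-CM replicate 1 brought Gsto1 (log2 0.89, edgeR adjusted p = 0.0046), Gstm2 (0.70, 0.034) and Gsta2 (0.035) inside the threshold, and leaving out PBS-CM+ACR replicate 3 as well gave 4 calls.

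Whether acrylamide changed the genes less in conditioned medium than without it was tested by an interaction term, the acrylamide effect with PBS-CM minus that without. By edgeR 0 of the 9 genes with a defined value were called, and so were 0 by DESeq2, with 0% of all genes called by edgeR. Of the 9, 8 had a negative difference, with a median of -0.30 against -0.028 over all genes. An unadjusted p below 0.05 was reached by 3, against 2.76% of all genes, with differences of -1.16 ± 0.41 for Gsta4, -0.69 ± 0.27 for Gstm1 and -0.82 ± 0.33 for Gstp1 (edgeR adjusted p = 1 each). For Gstm2 the difference was 0.00 ± 0.35.

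**Figure D4:**
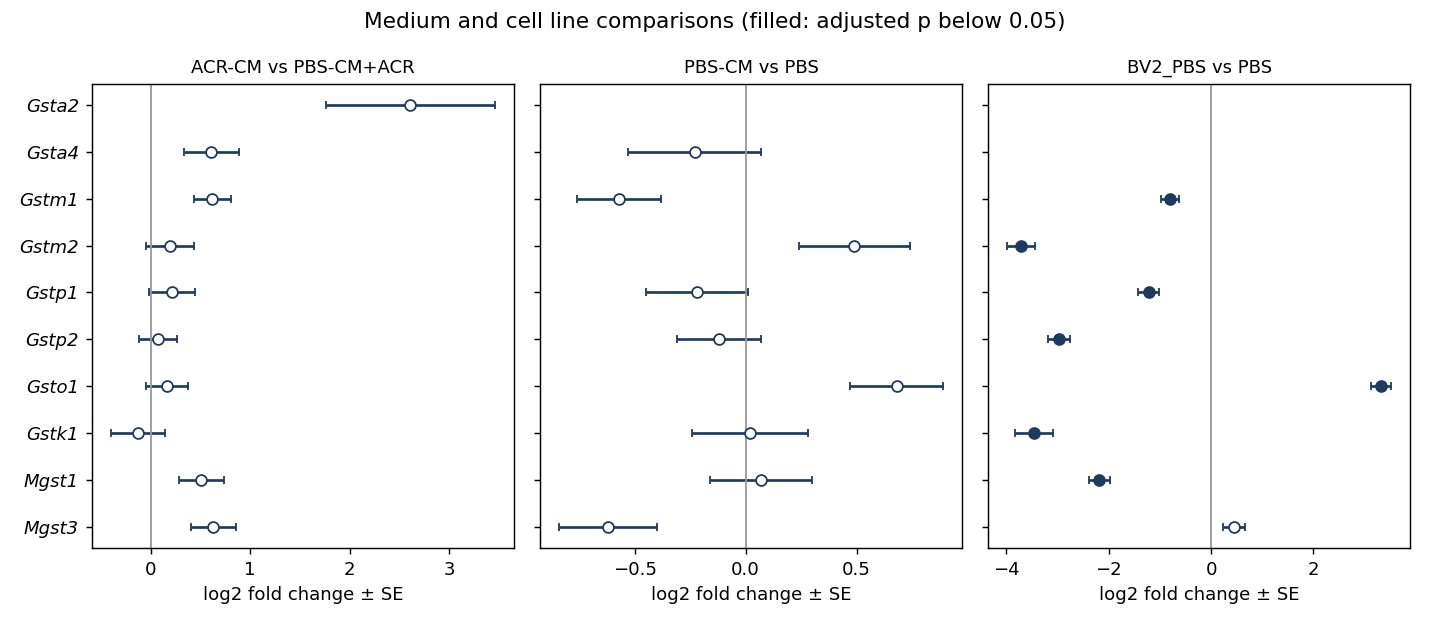
Log2 fold change ± SE of each gene for ACR-CM over PBS-CM+ACR, PBS-CM over PBS and BV2_PBS over PBS, fitted with edgeR and drawn on separate scales; filled points have an adjusted p below 0.05. No point is filled in the first 2 panels, and in BV2_PBS over PBS Gsto1 alone is filled on the positive side; Gsta2 in the last 2 panels and Gsta4 in the last are not drawn because one group had 0 counts.

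Acrylamide was also tested in BV2 microglia themselves. Of the 10 genes 7 passed the filter on low counts there. Gstm1, Gstm2, Gsto1 and Mgst1 rose, and 0 of the 7 fell, against 7.17% of all 10890 genes called higher, 9.33% lower and 16.5% in either direction (edgeR). Groups did not overlap for the same 4, against 33.7% of all genes. The median log2 change of the 7 was 0.38, against 0.033. The summed level of the 10 genes was 1512 ± 95 CPM in BV2_ACR and 886.6 ± 65.1 CPM in BV2_PBS (SD, n = 3 each).

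Gstm1 stood at 471, 454 and 411 CPM in BV2_ACR and at 102, 94.7 and 84.1 CPM in BV2_PBS. It rose 4.71-fold (log2 2.24 ± 0.13, edgeR adjusted p = 2.3e-09) and ranked 3 by p among the genes tested. Mgst1 stood at 245, 251 and 228 CPM in BV2_ACR and at 67.4, 69.8 and 67.0 CPM in BV2_PBS. It rose 3.51-fold (log2 1.81 ± 0.12, edgeR adjusted p = 1.7e-08) and ranked 5. The groups of both genes were widely separated and the calls held in all 10 alternatives run.

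Gstm2 stood at 15.3, 13.6 and 14.7 CPM in BV2_ACR and at 10.3, 6.49 and 5.51 CPM in BV2_PBS, a rise of 1.93-fold (log2 0.95 ± 0.27, edgeR adjusted p = 0.020). BV2_PBS replicate 1 was the highest of its group, and the call was lost without BV2_PBS replicate 2 or 3 (edgeR adjusted p = 0.074 and 0.075). Gsto1 stood at 461, 440 and 455 CPM in BV2_ACR and at 361, 357 and 316 CPM in BV2_PBS, a rise of 1.30-fold (log2 0.38 ± 0.12, edgeR adjusted p = 0.044). That call was lost without BV2_ACR replicate 2 or any one BV2_PBS library (edgeR adjusted p between 0.079 and 0.13) and with DESeq2's size factors (0.055).

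The pi-class genes were not called in BV2. Gstp1 stood at 285, 244 and 223 CPM in BV2_ACR and at 287, 280 and 243 CPM in BV2_PBS, with overlap (log2 -0.12 ± 0.13, 95% interval -0.39 to 0.15, edgeR adjusted p = 0.59). Gstp2 stood at 17.4, 14.7 and 9.1 CPM in BV2_ACR and at 10.3, 10.4 and 10.7 CPM in BV2_PBS (log2 0.38 ± 0.26, 95% interval -0.17 to 0.92). Mgst3 stood at 105, 104 and 70.8 CPM in BV2_ACR and at 88.3, 99.3 and 84.1 CPM in BV2_PBS, also overlapping (log2 0.03 ± 0.15). Gsta2 and Gsta4 had 0 counts in all 6 BV2 libraries. Gstk1 stood at 2.18, 0.867 and 0.505 CPM in BV2_ACR and at 1.43, 1.95 and 1.38 CPM in BV2_PBS and was not tested.

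The difference in the acrylamide effect between the lines was tested in a joint fit of all 21 libraries and 13569 genes, as BV2_ACR over BV2_PBS minus ACR over PBS. Of the 8 members with a defined value, 1 differed, Gstp1, whose effect was lower in BV2 by -2.12 ± 0.29 on the log2 scale (95% interval -2.72 to -1.52, edgeR adjusted p = 0.00059). Over all genes 0.228% were called lower, 0.339% higher and 0.567% in either direction. Gstp2 differed by -1.01 ± 0.29 (edgeR adjusted p = 0.098), Mgst1 by 0.86 ± 0.28 (0.13) and Gstm1 by 0.69 ± 0.24 (0.16), and these 3 were called without PBS-CM+ACR replicate 3 and PBS-CM replicate 1. For Gstm2, Gsto1 and Mgst3 the differences were 0.19 ± 0.36, 0.22 ± 0.27 and 0.37 ± 0.29.

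Between the lines at rest, in BV2_PBS 8 of the 10 genes were lower than in PBS cells and 1, Gsto1, was higher, in a comparison where 79.2% of all genes were called in either direction, 36.1% higher and 43.1% lower. Groups did not overlap for all 10, against 82.6% of all genes. Those shares are near the members' own, and the median over all genes was itself shifted, to -0.246 on the log2 scale, or -0.177 with DESeq2's size factors. Gsto1 averaged 345 ± 24.9 CPM in BV2_PBS and 34.6 ± 4.35 CPM in PBS, 9.98-fold higher (log2 3.32 ± 0.20, edgeR adjusted p = 1.8e-12). Gstm2 averaged 7.44 ± 2.54 CPM in BV2_PBS and 97.8 ± 10.3 CPM in PBS (log2 -3.71 ± 0.27). Gstk1 averaged 1.59 ± 0.313 CPM in BV2_PBS and 17.6 ± 2.29 CPM in PBS. Gsta4 had 0 counts in BV2_PBS and 250 in PBS. Gsta2, Gsta4 and Gstk1 passed the filter of the joint fit through 1C11NE libraries alone, so no fold is given for them. Their calls as lower, though part of the counts above, carry no weight. Smaller differences were those of Gstp1 at -1.22 ± 0.21 and Gstm1 at -0.80 ± 0.17 (edgeR adjusted p = 1.2e-05 and 0.00019). Line, strain and base medium cannot be told apart here.

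Genes that make and recycle glutathione were also called. Of 16 such genes 15 were tested in 1C11NE, and ACR raised 4 over PBS and lowered 0. Gclm and Gclc encode the modifier and catalytic subunits of the ligase that limits glutathione synthesis and rose by 1.89 ± 0.16 and 0.98 ± 0.23 on the log2 scale. The Gclc call was lost whichever of the 6 ACR and PBS libraries was left out (edgeR adjusted p between 0.10 and 0.24), so that 3 remained. Gss, glutathione synthetase, and Gsr, glutathione reductase, rose by 1.41 ± 0.18 and 1.12 ± 0.16. Over PBS-CM, 2 of the 15 rose in PBS-CM+ACR, Gclm by 1.10 ± 0.16 and Gsr by 1.01 ± 0.16, and 3 rose in ACR-CM, Gss by 1.36 ± 0.18, Gclm by 1.26 ± 0.16 and Gsr by 0.95 ± 0.16. In BV2, 7 of 13 tested rose and 0 fell, among them Gclm by 2.31 ± 0.14, Gsr by 1.71 ± 0.25, the dipeptidase Cndp2 by 0.92 ± 0.14 and the cystine importer Slc7a11 by 0.83 ± 0.16. Over all genes 0.462%, 0.175%, 0.446% and 7.17% were called higher in these comparisons, in the order given. The medians of the list were 0.26, 0.33, 0.35 and 0.75 in the same order, against -0.002, -0.017, -0.026 and 0.033 over all genes.

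Of 18 listed genes of conjugate export and mercapturate formation, 10 were tested in each line. ACR raised 1 over PBS, against 0.462% of all genes called higher. It was Ggt5, a gamma-glutamyltransferase, which rose by 1.44 ± 0.30. Its call was lost without ACR replicate 2 or 3 or PBS replicate 1 or 3 (edgeR adjusted p between 0.075 and 0.14). By edgeR 0 were called in PBS-CM+ACR or ACR-CM over PBS-CM, with an unadjusted p below 0.05 for 1 in each, against 8.66% and 12.9% of all genes. In BV2, 3 of the 10 rose and 0 fell, against 7.17% of all genes called higher and 9.33% lower. All 3 were ATP-driven exporters, Abcc5 by 1.00 ± 0.21, Abcc1, which exports glutathione conjugates, by 0.89 ± 0.23, and Abcc3. Abcc3 had 16 to 26 counts in BV2_ACR libraries and 4 to 9 counts in BV2_PBS libraries. It passed the filter there through BV2_ACR alone, so no fold is given. Its call, though part of the count above, carries no weight. Abcc3 lost its call without BV2_PBS replicate 1 (edgeR adjusted p = 0.062), and Abcc1 without BV2_ACR replicate 2 or BV2_PBS replicate 2 (up to 0.073). Whether these lists differ between the lines was not tested as a group.

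Of 10 reference genes of the NRF2 pathway, 3 rose in ACR over PBS, the quinone reductase Nqo1 by 1.92 ± 0.24, the sulfiredoxin Srxn1 by 1.63 ± 0.18 and the thioredoxin reductase Txnrd1 by 1.22 ± 0.16. The same 3 and the small MAF partner Mafg were called over PBS-CM in PBS-CM+ACR, where Nqo1 rose by 1.92 ± 0.25, and in ACR-CM, where it rose by 2.25 ± 0.25. Over all genes 0.462% were called higher in ACR, 0.175% in PBS-CM+ACR and 0.446% in ACR-CM. PBS-CM itself had 2 of the 10, Mafg and Bach1, called lower than PBS, against 2.06% of all genes. The median of the 10 there was -0.49, against -0.004. Mafg averaged 27.9 CPM in PBS, 15.6 CPM in PBS-CM, 28 CPM in PBS-CM+ACR and 34 CPM in ACR-CM, so PBS-CM+ACR only matched the PBS level. In PBS-CM+ACR the Mafg call held in 1 of the 6 fits that left out a library of either group, the one without PBS-CM replicate 1 (edgeR adjusted p up to 0.18 in the others). For PBS-CM against PBS, the Mafg call held in 5 of 6 such fits and the Bach1 call in 1 (edgeR adjusted p up to 0.053 and 0.16). In BV2, 7 were called higher, against 7.17% of all genes, and 1 lower, Maff at -1.05 ± 0.31, against 9.33%. Among the 7 were Txnrd1 at 1.95 ± 0.15, Srxn1 at 1.45 ± 0.14 and Nqo1, whose call carries no weight for the reason given below. The number called, with Nqo1 counted each time, was 3 without BV2_PBS replicate 1, 5 without BV2_PBS replicate 3 and 4 without BV2_ACR replicate 2. Maff lost its call in each of these (edgeR adjusted p up to 0.12). Nqo1 had 165 counts over the BV2_ACR libraries and 2 over the BV2_PBS libraries. It passed the filter there through BV2_ACR alone, so no fold is given and its call, though part of the counts above, carries no weight.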

How the data were processed

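RNA was measured in 21 libraries of 7 groups, assigned by sample title. Oligo(dT) beads selected polyadenylated RNA, which was fragmented with an enzyme and sequenced on an Ion GeneStudio S5, per the labels' protocols. The authors deposited raw counts per gene symbol, whole numbers with no normalisation. The tool Bowtie2 2.2.5 is listed per the submitters' processing notes. Build, annotation, strand use and the counter: not given in the sources used here. Overlapping genes may therefore share reads.

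From these counts, libraries were scaled by TMM, filtered with filterByExpr and tested with edgeR 4.0.16 (quasi-likelihood, robust, R 4.3.3), with Benjamini-Hochberg adjustment over all genes tested and a threshold of 0.05. The 15 1C11NE libraries shared one fit (12550 genes), BV2 was fitted alone (10890 genes), and a joint fit of all 21 (13569 genes) served for levels and for contrasts between the lines. Standard errors are the log2 change divided by the square root of the F statistic. No pair of replicates held the same values. The scripts were tested on simulated data.

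Alternatives were DESeq2's size factors, DESeq2 1.42.0, no filter, a replicate block, each library left out, both outlying libraries left out, contrast libraries alone and, added after seeing the data, near copies summed. Same-numbered libraries deviated together in BV2, with correlations of 0.13 to 0.31 in 3 of 3 pairs, which by the rule used counts as pairing. The block changed no BV2 member's call. In 1C11NE 11 of 30 pairs exceeded 0.1, so the numbers were not taken as pairs.

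The named genes were the 10 members and, of each list, at most 5 called members with the largest absolute log2 change. Members and lists were chosen with earlier results of these data known. Sequences came from RefSeq (GRCm38.p6) and GENCODE M21. Intervals and floors of 3 counts cover counting error only.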

Additional observations from a re-analysis of the deposited data

Results flagged for a closer look

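Gstp1 is listed here because its acrylamide effect differed between the cell lines in a test of the difference itself. The effect in BV2 minus that in 1C11NE was -2.12 on the log2 scale (edgeR adjusted p = 0.00059). With the counts of Gstp1 and Gstp2 summed it was -2.04 (edgeR adjusted p = 0.00079), and over the 19 alternatives run it lay between -2.22 and -2.03, called in each. The levels behind it were 251 ± 31.7 CPM in BV2_ACR and 270 ± 23.9 CPM in BV2_PBS, and 2540 ± 275 CPM in ACR and 630 ± 59.9 CPM in PBS (SD, n = 3 each).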

How the results depend on the processing

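No member's log2 difference that was called reversed its sign in any alternative run. Of 1105 recomputed member values, 1032 kept their side of the threshold, 971 of them with the same sign and 61, not called, with the other. A further 42 passed it newly and 31 no longer did. The counts of called members moved by more than 1.5 times as follows. PBS-CM against PBS had 0 called, but 3 with DESeq2's Wald test, 1 without the filter, 4 with both outlying libraries left out and 0 to 3 with single libraries left out (3 without PBS-CM replicate 1). The difference between the lines had 1, but 4 with DESeq2's Wald test, 4 with both outlying libraries left out and 3 with the contrast's libraries alone. ACR-CM against PBS-CM had 5, but 1 with the contrast's libraries alone and 3 to 5 with single libraries left out (3 without ACR-CM replicate 1). PBS-CM+ACR against PBS-CM had 2, but 0 with the contrast's libraries alone, 0 with the replicate block and 0 to 4 with single libraries left out. BV2_ACR against BV2_PBS had 4, and 2 to 4 with single libraries left out (2 without BV2_PBS replicate 2 or 3). The cause of these shifts was not tested. Under the replicate block ACR against PBS had 5 called members, Gsta2 included, ACR-CM against PBS-CM had 4, without Gsta2 (adjusted p = 0.081), and BV2 kept 4. In 1C11NE the numbers share only a label.

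Over all genes, the count called in ACR against PBS was 148, and 306 with DESeq2, 351 without the filter, 554 with both outlying libraries left out, 362 with the contrast's libraries alone and 71 to 109 with single libraries left out. In PBS-CM+ACR against PBS-CM it was 47, and 124, 136, 62, 0 and 11 to 73 in the same order, and 21 with the block. In ACR-CM against PBS-CM it was 116, and 278, 459, 174, 15 and 35 to 93, and 56 with the block. In PBS-CM against PBS it was 571, and 1222, 1372, 4479, 210 and 106 to 3233, and 309 with the block. In ACR-CM against PBS-CM+ACR it was 2, and 15, 13, 4 and 0 under the first 4 of these, and for the difference between the lines 77, and 565, 234, 682 and 457, with 43 under the block. For the acrylamide effect with PBS-CM minus that without it was 0, and 3, 2, 2 and 0. In BV2 the block gave 2355 against 1797, and single libraries left out gave 913 to 1883. Low transcripts such as Gsta2, and Gstk1 in BV2, were limited by depth.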

Other observations

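Transferase genes outside the 10 and relatives of the membrane-bound ones, such as Alox5ap, formed a list of 22, of which 20 were in the table. In 1C11NE 12 were tested. In ACR over PBS 1 was called, against 1.18% of all genes. It was Gsta1, an alpha-class near copy of Gsta2, which had 24, 32 and 27 counts in ACR and 1, 4 and 0 counts in PBS. It had at most 4 counts in any library outside ACR and passed the filter through ACR alone, so no fold is given and the call carries no weight. Both alpha genes share much of their sequence, and Gsta2 made up 40.0 to 49.1% of the counts of the pair in ACR. Gsta3, another alpha-class gene, had 23 counts in ACR-CM and 0 in PBS-CM, at least 7.76-fold higher (edgeR adjusted p = 0.0095), and 0 in PBS-CM against 11 in PBS, at least 3.15-fold lower (edgeR adjusted p = 0.032). The second call was lost without PBS-CM replicate 2 or 3 or PBS replicate 1 or 3 (edgeR adjusted p up to 0.12). The median log2 difference of ACR over PBS was 0.01 over the 12, against -0.002 over all genes. ACR and PBS did not overlap for 6 of the 12, against 21.3% of all genes. Gsta1, Gsta3 and Mgst2 were higher in ACR, while Gstt1, Gstz1 and Gstcd were lower. By edgeR 5 of the 12 had an unadjusted p below 0.05, against 12% of all genes.

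In BV2, 9 of the list were tested, 2 rose and 1 fell, against 7.17% of all genes called higher and 9.33% lower. The mu-class gene Gstm4 stood at 11.9, 10.1 and 12.1 CPM in BV2_ACR and at 4.30, 6.81 and 4.68 CPM in BV2_PBS (log2 1.11 ± 0.29, edgeR adjusted p = 0.013). Alox5ap, which presents arachidonate to 5-lipoxygenase, stood at 347, 351 and 315 CPM in BV2_ACR and at 234, 240 and 229 CPM in BV2_PBS (log2 0.52 ± 0.12, edgeR adjusted p = 0.0062). Hpgds, the sigma-class enzyme that makes prostaglandin D2 in immune cells, stood at 233, 192 and 198 CPM in BV2_ACR and at 320, 295 and 262 CPM in BV2_PBS (log2 -0.51 ± 0.13, edgeR adjusted p = 0.011). None of these groups overlapped. Without BV2_PBS replicate 1 all 3 calls were lost (edgeR adjusted p = 0.072 for Gstm4, 0.052 for Alox5ap and 0.088 for Hpgds), and Hpgds also lost its call without BV2_ACR replicate 2 (0.072). With single libraries other than BV2_PBS replicate 1 left out, 2 to 4 of the list were called.

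Across the 15 1C11NE libraries, the gene whose log level followed that of each member most closely, among 6394 genes, was found by Pearson's r as a description, since the libraries share groups and sequencing. For Gstp1 these were Gsr and Nqo1 (0.96 each) and the peroxiredoxin Prdx6 (0.95), for Gstp2 the ferritin light chain Ftl1 (0.99), and for Gsta4 the nucleotidase Entpd5 (0.96). Mgst1 lay closest to Tex19.1 (0.97), Gstm2 to Haus2 (0.97) and Gstk1 to the translation factor Eif6 (0.82). Between members r was 0.98 for Gstp1 with Gstp2 and 0.95 for Gstm1 with Gstp1, against 0.48 for Gstm1 with Gstm2 and 0.05 for Gstp1 with Mgst3.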
